A study of Mus musculus with 12 samples.

Results

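The clustered protocadherins are cadherin-like membrane proteins encoded by tandem gene arrays named alpha, beta and gamma. They were chosen here by gene symbol, as every Pcdha, Pcdhb and Pcdhg row of the deposited count tables, a rule that uses no expression value. The rule found 58 genes of the 55401 gene rows: 14 in the alpha cluster, 22 in the beta cluster and 22 in the gamma cluster. RNA came from tissue labelled as cerebellum from 12 mice, 1 library per mouse, in 3 groups of 4. The mice model spinocerebellar ataxia type 1, a disease caused by an expanded CAG tract in Atxn1, and the study tests molecules intended to reduce transcripts that hold such tracts. Wild-type mice given dimethyl sulfoxide (WT DMSO) were mice 413, 425, 426 and 431. Heterozygous Atxn1 154Q/2Q knock-in mice given DMSO alone (Het DMSO) were mice 409, 411, 420 and 429. Knock-in mice of the same genotype given the compound Hit 2 at 25 mg/ml in DMSO (Het Hit 2) were mice 410, 421, 422 and 430. All 3 groups therefore received the solvent, by intraperitoneal injection in 2 courses of 5 daily injections with 2 rest days between them. Treatment began at 18 weeks of age and tissue was taken at 20 weeks. The knock-in allele is carried by every cell of the animal, so no promoter or Cre line limits it to a cell type.

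In each alpha and gamma gene, 1 large variable exon codes for the extracellular cadherin repeats, the membrane span and a short stretch behind it, and is spliced to a set of constant exons that all genes of the cluster share. Beta genes have a single coding exon and no constant exons. Each neuron uses a small and partly random selection of the alternate alpha, beta and gamma promoters, a choice that involves CTCF, cohesin and DNA methylation, while the C-type genes at the end of the alpha and gamma arrays follow other rules and are more widely used. The proteins bind identical copies on neighbouring membranes, and this recognition is known for dendrite self-avoidance, which in the cerebellum includes the dendrites of Purkinje cells, and for the survival of some interneurons.

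The shared exons decide which reads can be given to a gene. A read that overlaps the exons of more than 1 gene is left as ambiguous by the aligner's gene counter, so reads from the constant exons are counted for no member. In the GENCODE M21 annotation, the share of a gene's exon bases that belong to no other gene on the same strand (here "own" bases) had a median of 46.4% in alpha, 55.3% in gamma and 100% in beta, where 20 of 22 genes shared no base. The counts of alpha and gamma genes thus describe their variable exons. Pcdha4 had 494 own bases, or 8.56% of its exon sequence, because an annotated readthrough transcript covers its variable exon. Levels of single genes are compared with each other below as counts scaled to library size (CPM) divided by the kilobases of own sequence. Sums and shares of clusters are in plain CPM, which also depends on how much sequence is countable, so they are compared between libraries and not between clusters. Ambiguous reads of all kinds made up 0.761% to 1.33% of a library.

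Depth was 15855751 to 45265719 gene-assigned reads per library, and the 58 genes together received 483941 reads over the 12 libraries, of which 56108 fell on alpha, 79398 on beta and 348435 on gamma genes. Libraries 409 and 411, both Het DMSO, stood apart. The summed level of 8 Purkinje cell markers was 636 CPM in library 411, 7017 in 409 and 7593 to 7915 in WT DMSO, and the sum of 8 granule cell markers was 84.9 CPM in 411, 7753 in 409 and 5409 to 6142 in WT DMSO. The granule markers of library 409 went both ways, with Fat2 at 4022 CPM (2093 to 2494 in WT DMSO) and Gabra6 at 230 CPM (306 to 339 in WT DMSO). None of these 16 markers was at 0 across the series, and 8 oligodendrocyte markers summed to 6577 CPM in 411 and 5467 in library 410 (Het Hit 2) against 1771 to 3373 in WT DMSO. In library 411 the granule and Purkinje markers that define cerebellar cortex were thus far below their level in the other 11 libraries, while markers of brainstem and midbrain neurons summed to 91.1 CPM against 11.7 to 20.9 in WT DMSO. In library 409, mitochondrial genes took 0.0795% of gene reads, against 1.85% to 2.81% elsewhere. The main results that rest on these libraries are given with and without them. In bulk tissue, fewer cells of a type and less RNA per cell cannot be told apart.

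The 3 clusters differed in level. The median gene stood at 13.9 CPM per own kb in gamma, 3.68 in alpha and 2.21 in beta, as means over the 12 libraries. Pcdhgc3, a C-type gamma gene known to act in dendrite branching, was the highest of the 58 at 47.2 ± 13.4 CPM per own kb (SD, n = 12 libraries). The next were the alternate genes Pcdhgb6 at 25.6 ± 6.60 and Pcdhga11 at 24.6 ± 5.45 CPM per own kb, which differed from each other by less than their spread. The other C-type genes were spread through the ranking. Pcdhac2, needed for the even spacing of serotonergic axons, stood at 14.2 ± 2.81 CPM per own kb, at rank 11. Pcdhgc4, the gamma member most tied to neuronal survival, stood at 12.3 ± 3.05, Pcdhgc5 at 8.12 ± 2.57 and Pcdhac1 at 5.26 ± 1.25 CPM per own kb. Their spreads overlapped those of many alternate gamma genes.

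Within each cluster the level per own kb tended to rise with position, but not gene by gene. Pcdha11 lay below Pcdha7 to Pcdha10, and Pcdhb18, Pcdhb19, Pcdhb21 and Pcdhb22 lay below Pcdhb9 and Pcdhb12. Pcdhgb8 and Pcdhga12, the last alternate gamma genes, lay below Pcdhgb7. Among the 12 alternate alpha genes, Pcdha1 and Pcdha4 had 1.07 and 1.04 CPM per own kb and Pcdha3 had 2.38, while Pcdha12, the alternate gene nearest the C-type genes, had 7.15, Pcdha10 5.14 and Pcdha9 4.42. In beta, Pcdhb1 had 0.0698 CPM per own kb, from 65 reads in all 12 libraries, and Pcdhb5 and Pcdhb3 had 1.12 and 1.27. The highest beta genes were Pcdhb17 at 5.17, Pcdhb16 at 5.02 and Pcdhb15 at 4.10 CPM per own kb, so the median of Pcdhb14 to Pcdhb22 was 3.10 against 1.64 for Pcdhb1 to Pcdhb13. In gamma, Pcdhga1, Pcdhga2 and Pcdhgb1 at the start of the array had 2.60, 6.58 and 7.64 CPM per own kb, and Pcdhgb6, Pcdhga11 and Pcdhgb7 near its end had 25.6, 24.6 and 20.4. Gamma A and gamma B genes, which alternate along the array, had medians of 14.3 and 13.6. As a description across genes of 1 array, which share libraries and are not independent replicates, Spearman's rho between position and level was 0.76 for the 12 alternate alpha genes, 0.76 for the 22 beta genes and 0.81 for the 19 alternate gamma genes. In single libraries the gamma value was 0.27 in library 411 and 0.64 to 0.87 in the other 11.

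**Figure D1:**
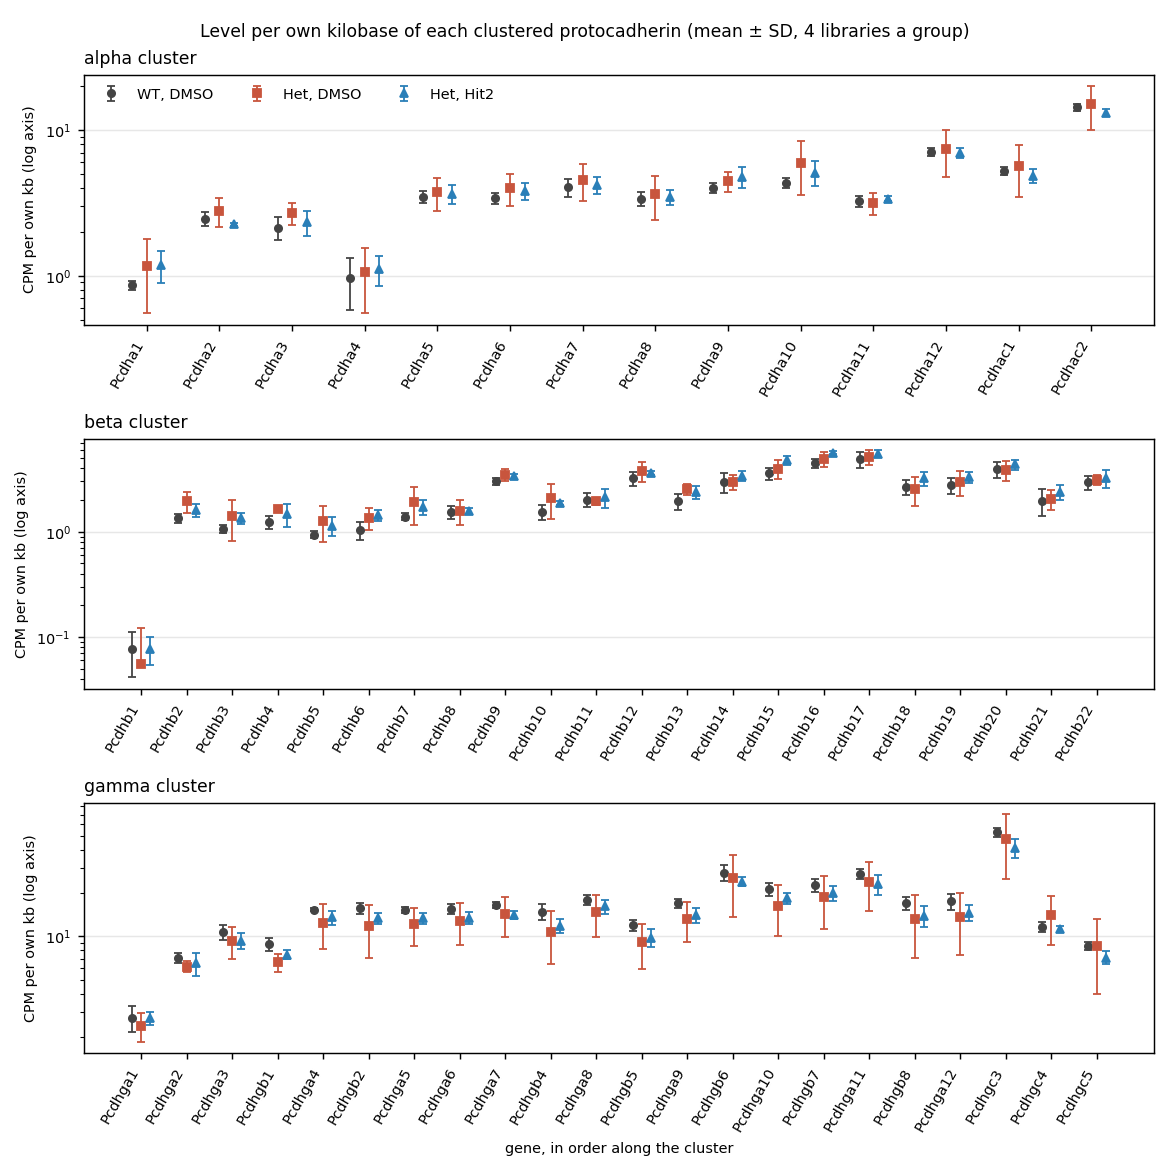
Level of each gene in order along the alpha, beta and gamma clusters, in CPM per own kb on a log axis, with points for the group mean and bars for ±1 SD over 4 libraries (no lower bar where it would reach 0). Levels tend to rise along each array, though not gene by gene, from 2.60 at Pcdhga1 to 24.6 at Pcdhga11 in gamma as 12-library means. The Het DMSO bars are the widest for most alpha and gamma genes.

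The members kept nearly the same ranking from mouse to mouse. The median Spearman correlation of a library with the other 11 over the 58 genes was 0.98 or 0.99 in 10 libraries, 0.94 in library 409 and 0.92 in library 411, a description across genes of unequal length in shared libraries. Spread within a group differed more. The median coefficient of variation of CPM over 4 mice was 8.45% in alpha, 15.3% in beta and 8.25% in gamma genes in WT DMSO. In Het DMSO it was 30.8%, 21.9% and 36.2%, and in Het Hit 2 13.8%, 12.1% and 11%.

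The wide Het DMSO spread lay with libraries 409 and 411, which departed from wild type in different genes. In library 411, 21 of 22 gamma genes were below the WT DMSO mean, with a median log2 CPM deviation of -1.22, and 20 of 22 beta genes were above it, with a median of 0.45. Pcdhgc4 was the 1 gamma gene of library 411 above the WT DMSO mean. Alpha genes of that library had a median deviation of -0.28. In library 409, 13 of 14 alpha genes were above the WT DMSO mean, with a median deviation of 0.58, and Pcdhgc3, Pcdhgc4, Pcdhgc5, Pcdhac1 and Pcdhac2 were each the highest of the 12 libraries. The other Het DMSO libraries, 420 and 429, had gamma medians of -0.04 and -0.15. The marker sums of libraries 409 and 411 and the mitochondrial share of library 409 given above move with these deviations, and their part in them was not tested.

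**Figure D2:**
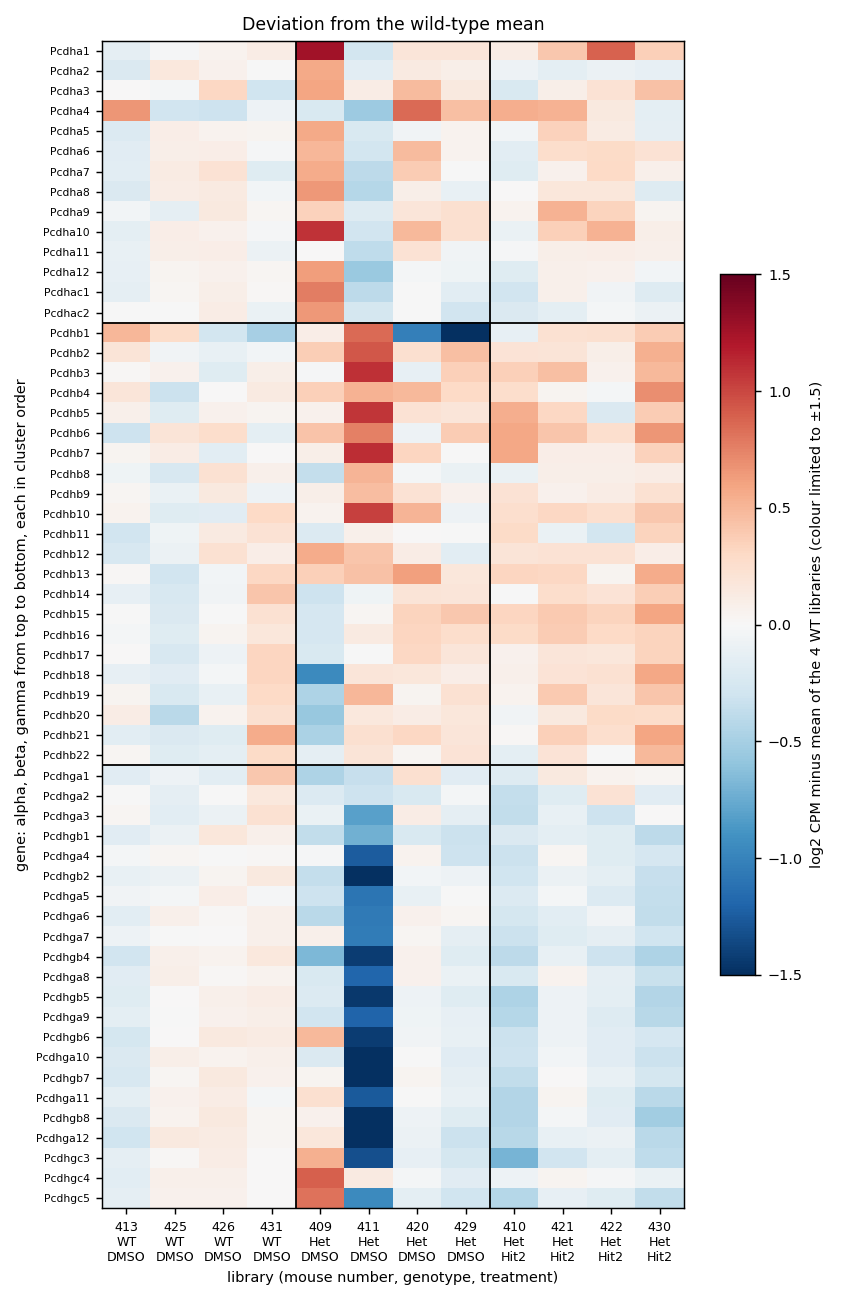
Deviation of each of the 58 genes (rows, alpha, beta and gamma in cluster order) from the mean of the 4 WT DMSO libraries in each of the 12 libraries (columns), in log2 CPM with a prior count of 2, with colour limited to ±1.5. The gamma block of library 411 is below wild type in 21 of 22 genes, and the gamma block of library 410 in 22 of 22.

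Het DMSO mice were compared with WT DMSO mice for the knock-in allele. By their transcripts, both sexes occurred in the WT DMSO group only, so sex and genotype are partly mixed here. Of the 57 members that passed the filter on low counts (all but Pcdhb1), 0 passed an adjusted p of 0.05 in edgeR's quasi-likelihood test with Benjamini-Hochberg adjustment, against 0.00516% of the 19378 genes tested. The smallest adjusted p of a member was 0.616. At an unadjusted p under 0.05 there were 3 members beside a background of 7.11% of all genes tested, of which Pcdhb2 and Pcdhb13 were higher and Pcdhgb1 was lower. DESeq2 also gave 0 members at an adjusted p of 0.05 (0.181% of the genes it adjusted) and 4 at an unadjusted p under 0.05 (5.46% of the genes it tested). Without libraries 409 and 411, 4 members (Pcdhb15 and Pcdhb16 higher, Pcdhgb1 and Pcdhgc5 lower) had an unadjusted p under 0.05 in edgeR, beside 5.83% of all genes tested. The limma fit with a quality weight per library gave 0 members at an adjusted p of 0.05 (0.506% of all genes tested) and 10 at an unadjusted p under 0.05, 8 higher and 2 lower (9.4% of all genes tested).

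Pcdhgb1, an alternate gamma gene near the start of its array, had 20.4, 21.7, 25.9 and 24.3 CPM in WT DMSO libraries 413, 425, 426 and 431. In Het DMSO libraries 409, 411, 420 and 429 it had 17.8, 13.9, 19.6 and 18.4 CPM. All 4 Het DMSO values lay below the lowest WT DMSO value, and the log2 fold change was -0.41 ± 0.14 (SE, adjusted p = 0.616 in edgeR). Pcdhgb1 was the only member with groups that did not overlap and a lower Het DMSO value, and 2.45% of all genes tested had that pattern. In Het Hit 2 libraries 410, 421, 422 and 430 it had 19.8, 20.8, 20.3 and 17.5 CPM, which overlap both other groups.

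Pcdhb2 had 4.35, 3.68, 3.53 and 3.67 CPM in the WT DMSO libraries, in the same order, and 4.95, 7.27, 4.42 and 5.17 CPM in the Het DMSO libraries. The groups did not overlap, with library 411 highest, and the log2 fold change was 0.52 ± 0.20 (SE, adjusted p = 0.616 in edgeR). Pcdhb4 likewise had 5.17, 3.65, 4.58 and 4.97 CPM in WT DMSO and 5.89, 6.51, 6.35 and 5.59 CPM in Het DMSO, without overlap, and a log2 fold change of 0.41 ± 0.20 (SE, adjusted p = 0.616 in edgeR). These were the 2 members higher in Het DMSO without overlap, a pattern that 1.94% of all genes tested had. Pcdhb13 stood at 7.18 ± 1.22 CPM in WT DMSO and 9.39 ± 1.19 in Het DMSO (SD, n = 4 each), at a fitted log2 fold change of 0.39 ± 0.17 (SE, adjusted p = 0.616 in edgeR). The groups overlapped for Pcdhb13 and for Pcdhgb4, which had the fifth smallest p and a log2 fold change of -0.47 (SE 0.25). Pcdhgb4 stood at -0.079 and Pcdhb2 at 0.33 without libraries 409 and 411.

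The C-type genes gave no call, and libraries 409 and 411 set much of their Het DMSO spread. Pcdhgc3 had 163, 181, 193 and 180 CPM in WT DMSO and 258, 71.8, 165 and 149 CPM in Het DMSO, so the Het DMSO group held both the highest and the lowest of these 8 values. Its log2 fold change was -0.16 ± 0.29 (SE, adjusted p = 0.834 in edgeR), and it was 0.11 without library 411 alone and -0.48 without library 409 alone. Pcdhgc4 had 36, 42.6, 42.4 and 40.5 CPM in WT DMSO and 75.3, 44.1, 39.3 and 35.7 in Het DMSO. Its log2 fold change of 0.27 (SE 0.20) became -0.12 without libraries 409 and 411. Pcdhgc5 had 36.1, 41.5, 41.7 and 39.7 CPM in WT DMSO and 70.1, 20.4, 35.8 and 32.1 in Het DMSO. Its log2 fold change was -0.0027 (SE 0.28), and without the 2 libraries it was -0.24 with an unadjusted p of 0.0481 and an edgeR adjusted p of 0.849. Without library 411 alone it was 0.24 and without library 409 alone -0.44. Both remaining Het DMSO values of Pcdhgc5 were below the lowest WT DMSO value.

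The alpha C-type genes behaved alike in library 409. Pcdhac1 had 12.2, 13.7, 14.3 and 13.5 CPM in WT DMSO and 22.8, 10.2, 13.3 and 12 in Het DMSO, and its log2 fold change of 0.12 (SE 0.22) became -0.10 without libraries 409 and 411. Pcdhac2 had 43.2, 43.2, 46.6 and 40.4 CPM in WT DMSO and 67.8, 35.9, 43.0 and 35.5 in Het DMSO. Its log2 fold change of 0.07 (SE 0.18) became -0.16 without them. For neither gene did the 2 groups separate.

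**Figure D3:**
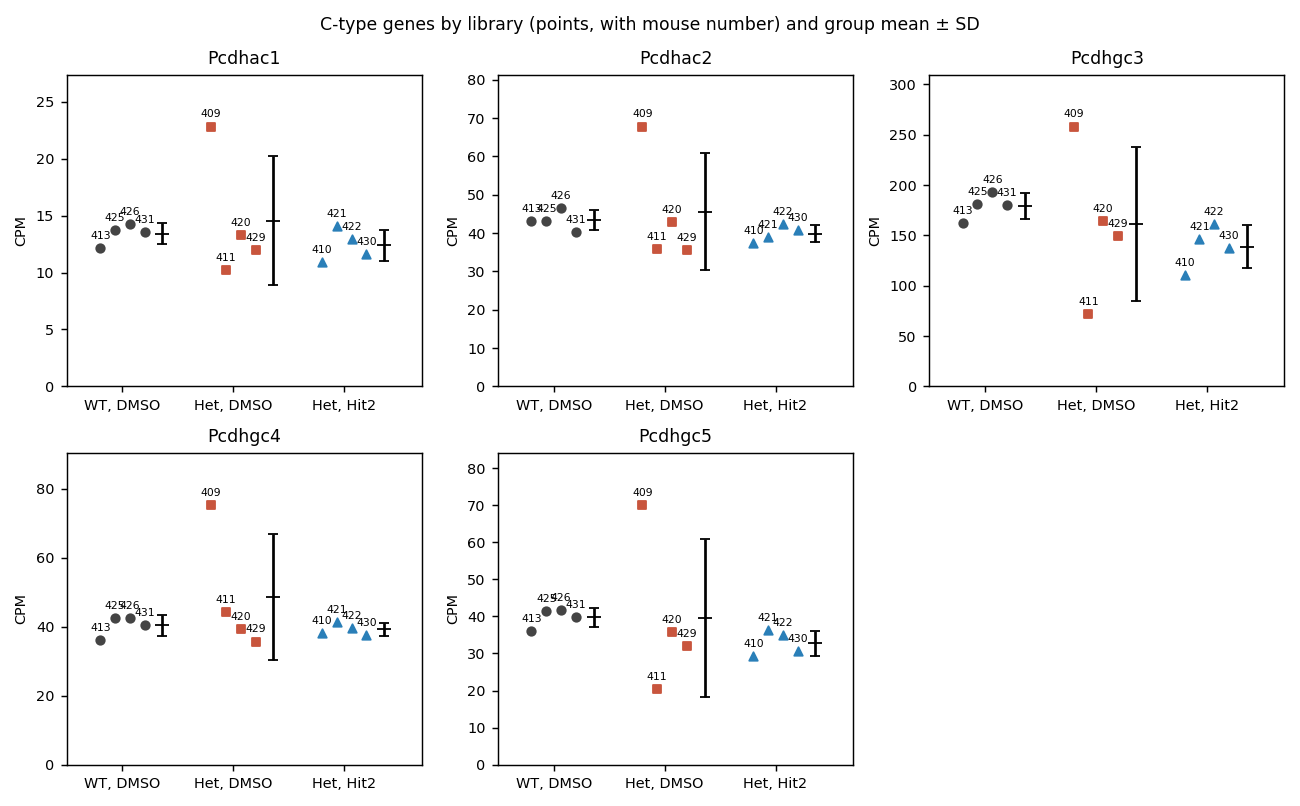
CPM of the 5 C-type genes in each library, with the mouse number at each point and the group mean ± SD (n = 4) beside the points. Library 409 is the highest of the 12 for all 5 genes, and Pcdhgc3 in the Het Hit 2 libraries (110 to 161 CPM) lies below the WT DMSO libraries (163 to 193 CPM).

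Across a whole cluster the log2 fold changes for Het DMSO against WT DMSO had medians of 0.14 in alpha (13 of 14 positive), 0.14 in beta (17 of 21 tested positive) and -0.29 in gamma (21 of 22 negative), beside 0.05 over all genes tested. Without libraries 409 and 411 the medians were 0.12, 0.14 and -0.10, with 9 of 14 alpha genes positive, 18 of 21 beta genes positive and 20 of 22 gamma genes negative (all but Pcdhga1 and Pcdhga6), beside -0.01 over all genes tested. The gamma A and gamma B genes had medians of -0.29 and -0.39 with all libraries and -0.07 and -0.10 without those 2. These are counts and medians of a list, with no test over the list, and its genes share libraries.

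Het Hit 2 mice were compared with Het DMSO mice for the compound. In edgeR's quasi-likelihood test 0 of 57 members passed an adjusted p of 0.05 (0% of all genes tested), and the smallest adjusted p was 0.898. At an unadjusted p under 0.05 there were 0 members in edgeR and 0 in DESeq2, and 1.55% of all genes tested passed it in edgeR and 1.51% in DESeq2. The limma fit also gave 0 members at an unadjusted p under 0.05, beside 5.04% of all genes tested. The 2 groups overlapped for all 57 members, while 0.635% of all genes tested were higher and 0.392% lower in Het Hit 2 without overlap. The member with the smallest p was Pcdha2, at 5.64 ± 0.13 CPM in Het Hit 2 and 6.92 ± 1.55 in Het DMSO (SD, n = 4 each), at a fitted log2 fold change of -0.30 ± 0.18 (SE, adjusted p = 0.898 in edgeR). The value was -0.22 without libraries 409 and 411, -0.14 without library 409 alone and -0.43 without library 411 alone. Pcdhb15, Pcdhgc4, Pcdhb18 and Pcdhb16 followed, with log2 fold changes of 0.26, -0.31, 0.34 and 0.19. These 4 became 0.042, 0.062, 0.15 and 0.031 without libraries 409 and 411, so Pcdhgc4 changed sign.

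The C-type genes were then read in the Het Hit 2 libraries 410, 421, 422 and 430. Pcdhgc3 had 110, 146, 161 and 137 CPM, Pcdhgc4 had 38.2, 41.4, 39.7 and 37.5 CPM, and Pcdhgc5 had 29.4, 36.3, 34.9 and 30.6 CPM. All of these lay inside the Het DMSO range, which libraries 409 and 411 make wide. Pcdhac1 had 10.9, 14, 12.9 and 11.6 CPM and Pcdhac2 had 37.3, 39.0, 42.4 and 40.8 CPM. The log2 fold changes against Het DMSO were -0.21 (95% interval -0.84 to 0.41) for Pcdhgc3, -0.31 (-0.75 to 0.12) for Pcdhgc4, -0.27 (-0.89 to 0.34) for Pcdhgc5, -0.24 (-0.72 to 0.25) for Pcdhac1 and -0.19 (-0.59 to 0.21) for Pcdhac2. All 5 intervals include 0, and their width does not show that the groups are alike. Without libraries 409 and 411 the values were -0.18 for Pcdhgc3, 0.062 for Pcdhgc4, -0.051 for Pcdhgc5, -0.026 for Pcdhac1 and 0.023 for Pcdhac2.

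Over the clusters the median log2 fold changes for Het Hit 2 against Het DMSO were -0.07 in alpha, 0.07 in beta and 0.09 in gamma, beside -0.04 over all genes tested. Without libraries 409 and 411 they were -0.02, 0.07 and -0.14, beside 0.01 over all genes tested, so the gamma median changed sign and 19 of 22 gamma genes were lower in Het Hit 2. At an unadjusted p under 0.05 there were then 2 members, Pcdhga6 and Pcdhga7, both lower in Het Hit 2, while 3.72% of all genes tested passed it. Their log2 fold changes were -0.25 (SE 0.10) and -0.19 (SE 0.08), and both had an edgeR adjusted p of 0.983. This setting leaves 2 mice in the Het DMSO group.

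Het Hit 2 mice were compared with WT DMSO mice, a contrast in which genotype and compound both differ and sex is again partly mixed with them. In edgeR's quasi-likelihood test 0 of 57 members passed an adjusted p of 0.05, against 0.00516% of all genes tested, and DESeq2 also gave 0, against 0.131% of the genes it adjusted. At an unadjusted p under 0.05 there were 2 members in both tools, Pcdhb15 and Pcdhb16, and 1.71% of all genes tested passed it in edgeR and 1.27% in DESeq2. These neighbouring beta genes were also the 2 members whose Het Hit 2 values all lay above WT DMSO, a pattern of 2.9% of all genes tested.

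Pcdhb15 had 9.92, 8.60, 9.94 and 11.7 CPM in WT DMSO and 12.4, 13.1, 12.6 and 15.1 CPM in Het Hit 2, and its log2 fold change was 0.41 ± 0.17 (SE, adjusted p = 1.000 in edgeR). Pcdhb16 had 23.0, 20.7, 24.0 and 26.4 CPM in WT DMSO and 28.5, 30.4, 28.9 and 29.7 CPM in Het Hit 2, and its log2 fold change was 0.32 ± 0.13 (SE, adjusted p = 1.000 in edgeR). Each Het Hit 2 value of both genes exceeded the highest WT DMSO value. In Het DMSO libraries 409, 411, 420 and 429, Pcdhb15 had 8.38, 10.2, 12.6 and 13.2 CPM and Pcdhb16 had 19.7, 25.7, 29.3 and 28.1 CPM. For both genes libraries 420 and 429 lay above the WT DMSO range and library 409 lay below it. With limma and a quality weight per library, Pcdhb15 and Pcdhb16 passed the threshold for Het Hit 2 against WT DMSO (adjusted p = 0.0342 and 0.0255), as did 1.14% of all genes tested, and the other 55 members did not.

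Lower values without overlap in Het Hit 2 were found for Pcdhgc3 and Pcdhga7, a pattern of 3.42% of all genes tested. Pcdhgc3 had 110 to 161 CPM in Het Hit 2 against 163 to 193 in WT DMSO, at a fitted log2 fold change of -0.37 (SE 0.29). Pcdhga7, an alternate gamma gene from the middle of its array, had 48.6, 51.1, 51.4 and 54.1 CPM in WT DMSO and 40.9, 45.0, 46.6 and 41.5 CPM in Het Hit 2, at a fitted log2 fold change of -0.24 (SE 0.20). Library 410, with the least Pcdhgc3 and Pcdhga7 of the Het Hit 2 group, was also the one with the lowest Purkinje marker sum of that group (3335 CPM, against 5284 to 6596 in the other 3). The part of cell content in these differences was not tested. The other named members overlapped: Pcdhb6 (log2 fold change 0.46, SE 0.22), Pcdhb13 (0.30, SE 0.17) and Pcdhgb1 (-0.24, SE 0.14). The remaining C-type genes Pcdhgc4, Pcdhgc5, Pcdhac1 and Pcdhac2 had log2 fold changes of -0.04, -0.28, -0.11 and -0.12 with standard errors of 0.18 to 0.28.

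In the edgeR fit the direction was uniform in beta and in gamma. All 21 beta genes tested were higher in Het Hit 2 than in WT DMSO by their fitted value, with a median log2 fold change of 0.25, and all 22 gamma genes were lower, with a median of -0.22, while alpha had a median of 0.07 with 10 of 14 positive. Over all genes tested the median was 0.02. When the fit left out libraries 409 and 411, which are in neither group but enter the shared estimate of spread, the medians were 0.24, -0.23 and 0.05. In that fit 19 members had an unadjusted p under 0.05, 4 higher and 15 lower, and 9.5% of all genes tested passed it, while 0 members passed an adjusted p of 0.05 (0.448% of all genes tested). The limma fit with library weights gave another balance, with 22 members at an unadjusted p under 0.05, 16 higher and 6 lower, and 12.9% of all genes tested. In that limma fit the direction was not uniform, since Pcdhb11 stood at -0.051 and Pcdhga1 at 0.13. In edgeR without the 2 libraries, Pcdhb16 had the smallest adjusted p of the members named here (edgeR, 0.144), followed by Pcdhga7 (0.163), Pcdhb15 (0.201) and Pcdhgc3 (0.209). The comparisons of the 2 Het groups with WT DMSO share the wild-type mice, so their like directions are not independent of each other.

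The sums over each cluster gave the same picture in CPM. The gamma sum was 1001, 1146, 1187 and 1173 CPM in WT DMSO, 1234, 485, 1090 and 998 in Het DMSO and 854, 1051, 1013 and 886 in Het Hit 2. Libraries 410 and 430 of the Het Hit 2 group and libraries 411 and 429 of the Het DMSO group lay below the lowest WT DMSO value. The beta sum was 219, 197, 221 and 265 CPM in WT DMSO, 199, 278, 257 and 252 in Het DMSO and 246, 264, 251 and 295 in Het Hit 2. The alpha sum was 147, 161, 169 and 151 CPM in WT DMSO, 240, 126, 173 and 151 in Het DMSO and 142, 168, 173 and 155 in Het Hit 2. No pair of groups separated for any of the 3 sums. The log2 ratios of the group means for Het Hit 2 against WT DMSO were 0.02 in alpha, 0.23 in beta and -0.24 in gamma. For Het DMSO against WT DMSO they were 0.13, 0.13 and -0.24, or 0.04, 0.18 and -0.11 without libraries 409 and 411.

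**Figure D4:**
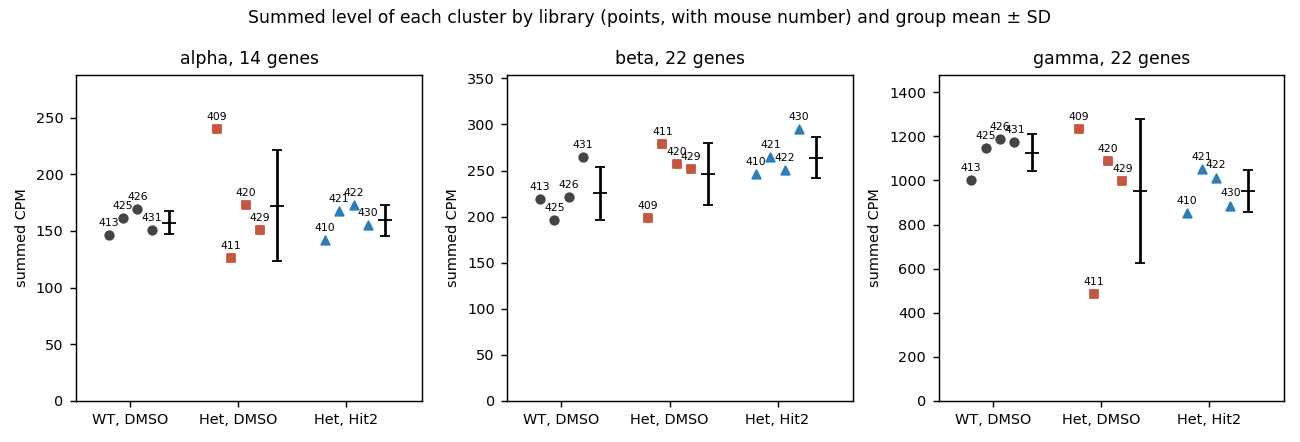
Summed CPM of the alpha, beta and gamma genes in each library, with the mouse number at each point and the group mean ± SD (n = 4) beside the points. Library 411 has the lowest gamma sum (485 CPM) and library 409 the highest alpha sum (240 CPM), and the groups overlap in all 3 panels.

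The balance between the clusters separated Het Hit 2 from WT DMSO where the sums did not. Gamma genes took 73.3%, 76.2%, 75.2% and 73.8% of the summed member CPM in WT DMSO and 68.8%, 70.9%, 70.5% and 66.3% in Het Hit 2, so all 4 treated libraries lay below all 4 wild-type libraries. In Het DMSO the gamma share was 73.8%, 54.6%, 71.7% and 71.2%, with 3 of 4 libraries below the WT DMSO range. The summed gamma CPM was 4.58, 5.83, 5.36 and 4.43 times the summed beta CPM in WT DMSO, 6.21, 1.74, 4.24 and 3.96 times in Het DMSO, and 3.48, 3.97, 4.04 and 3.00 times in Het Hit 2. The beta share accordingly was 13.1% to 16.7% in WT DMSO and 17.5% to 22.1% in Het Hit 2, and it was 11.9%, 31.3%, 16.9% and 18.0% in Het DMSO libraries 409, 411, 420 and 429, which spanned both other groups. The alpha share was 9.51% to 10.7% in WT DMSO, 10.8% to 14.3% in Het DMSO and 11.3% to 12% in Het Hit 2, and both knock-in groups lay above the wild-type range. For Het DMSO the margin was small, at 10.79% in library 429 against 10.73% in WT DMSO library 413. The alpha sums overlapped between the groups, and a share also depends on the sums of the other clusters. Within alpha, Pcdhac1 and Pcdhac2 together took 35.2% to 37.8% of the CPM in WT DMSO and 31.6% to 33.9% in Het Hit 2. The Het DMSO libraries 420 and 429 had 32.6% and 31.4% and libraries 409 and 411 had 37.8% and 36.7%. Within gamma, the C-type genes took 22.2% to 23.4% in WT DMSO, 21.7% to 32.7% in Het DMSO and 20.8% to 23.3% in Het Hit 2, which overlap. These shares were summed over chosen members and carry no test.

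Cell-type markers moved beside these shares. The Purkinje marker sum was below its WT DMSO range in all 8 knock-in libraries, at 7017, 636, 5750 and 4873 CPM in Het DMSO and 3335, 6004, 6596 and 5284 CPM in Het Hit 2. The sum of 8 astroglia and Bergmann glia markers was also lower in all 8, at 649 to 1268 CPM in Het DMSO and 942 to 1255 in Het Hit 2 against 1419 to 1521 in WT DMSO. Of these 8 markers, Slc1a3 and Gdf10 were below the WT DMSO range in all 8 knock-in libraries, and the other 6 overlapped between wild type and knock-in. Granule markers summed to 3552, 5084, 5961 and 3860 CPM in Het Hit 2 against 5409 to 6142 in WT DMSO, and libraries 410 and 430, with the lowest of these, also had the lowest gamma sums of their group. The part of cell content in the cluster shares was not tested.

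Antisense reads marked the alpha cluster. The tables count the strand opposite to each gene as well, and over the 12 libraries antisense reads were 20.7% of the reads on either strand at Pcdha1, 16.3% at Pcdha2, 21.3% at Pcdha3, 41.0% at Pcdha4, 16.3% at Pcdha5 and 18.6% at Pcdha6. Toward the end of the array the share was lower, at 11.8% for Pcdha7, 10.6% for Pcdha8, 5.47% for Pcdha9, 2.29% for Pcdha10, 3.00% for Pcdha11, 0.745% for Pcdha12, 0.0853% for Pcdhac1 and 0.261% for Pcdhac2. In all, 8 of 14 alpha genes had more than 10% antisense reads, as did 16.3% of all genes tested, and none of the beta or gamma genes did. The median share was 11.2% in alpha, 0.0968% in beta and 0.507% in gamma, beside 0.391% over all genes tested. Antisense transcripts from the alternate alpha exons are known to take part in promoter choice. The 41.0% at Pcdha4 rests on 114 antisense and 164 sense reads.

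The summed level of antisense reads overlapped between the groups. The antisense reads of Pcdha1 to Pcdha8 summed to 8.14 to 11.2 CPM in WT DMSO, 7.22 to 11 in Het DMSO and 9.90 to 11.9 in Het Hit 2. Over all 14 alpha genes, antisense reads took from 3.43% of the reads on both strands in library 409, where alpha sense reads were highest, to 8.75% in library 411. Among single genes, chosen after their values were seen, the antisense share of Pcdha2 was 22%, 21.3%, 21.4% and 23.7% in Het Hit 2, against 13.1% to 15.6% in WT DMSO and 7.73% to 19.3% in Het DMSO. The Het Hit 2 libraries thus lay above all others for Pcdha2, which had 415 antisense reads over the 12 libraries. Het Hit 2 shares also lay above WT DMSO without overlap for Pcdhac2, from 39 antisense reads in all, and above Het DMSO for Pcdha7, so that 2 members had this pattern in each comparison, against 1.18% of all genes tested for WT DMSO and 1.06% for Het DMSO. No member had lower Het Hit 2 shares without overlap (1.31% and 0.748% of all genes tested), and for Het DMSO against WT DMSO no member separated in either direction (1.33% higher and 2.02% lower). In gamma the antisense share was largest around Pcdhgb7 (3.97%), Pcdhga12 (3.17%) and Pcdhgb8 (3.00%), at the end of the alternate array. Counting without strand lowered several members that have an annotated gene on the opposite strand: reads counted on either strand were 0 for Pcdhga10, and 9.37% of the stranded count for Pcdha11, 22.2% for Pcdhb12 and 35.7% for Pcdhgc3.

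**Figure D5:**
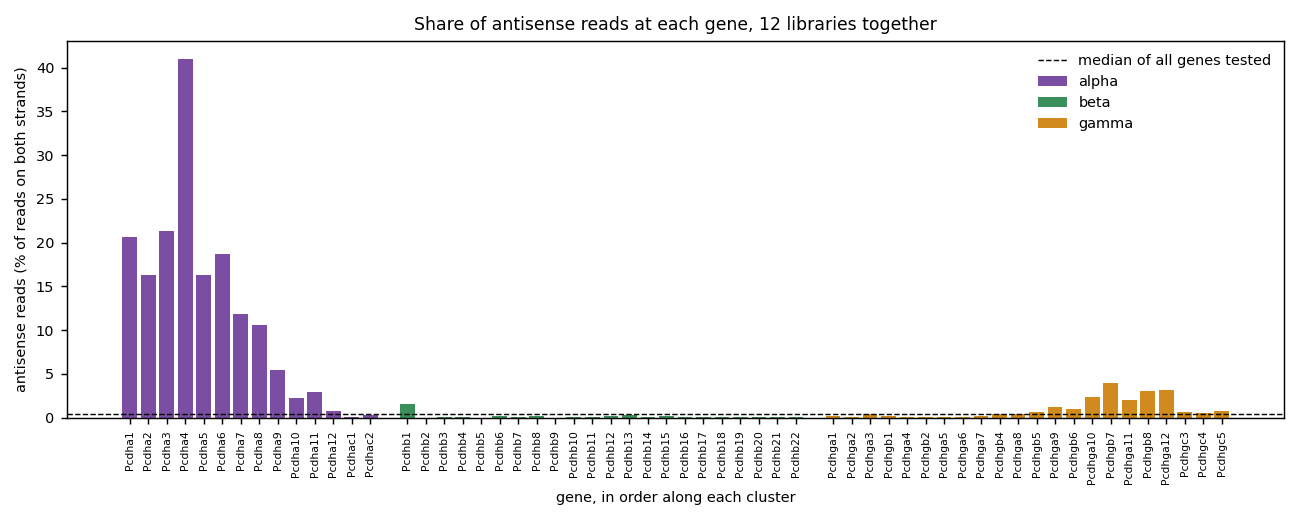
Antisense reads as a percent of the reads on both strands at each of the 58 genes, pooled over 12 libraries, in order along the alpha, beta and gamma clusters, with a dashed line at the median of all genes tested (0.391%). The share is above 10% at Pcdha1 to Pcdha8 and lowest in alpha at Pcdhac1 (0.0853%).

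Genes that act on or with the clustered protocadherins were read from the same fit. Of 11 cohesin and CTCF genes, which shape promoter choice in the clusters, 0 passed the threshold in any of the 3 comparisons. Their median log2 fold change for Het DMSO against WT DMSO was -0.39, with 10 of 11 negative, and 0.05 with 9 of 11 positive without libraries 409 and 411. Pds5a, a cohesin regulator with the smallest p of the list there, had 125, 124, 129 and 144 CPM in WT DMSO and 41.4, 89.8, 129 and 131 CPM in Het DMSO, so libraries 409 and 411 were the only ones below the wild-type range. Rad21, a cohesin subunit with the smallest p for Het Hit 2 against Het DMSO, had a log2 fold change of 0.24 (SE 0.15). The median of the list in that comparison was 0.30, with 10 of 11 positive, and it turned to -0.14, with 1 of 11 positive, without libraries 409 and 411, where Rad21 stood at -0.020. For Het Hit 2 against WT DMSO the median was -0.06, with 7 of 11 negative, and -0.07, with 9 of 11 negative, without those libraries. Pds5a was then the 1 gene of the list with an edgeR unadjusted p under 0.05, beside 9.5% of all genes tested. Of 12 genes of chromatin silencing and DNA methylation, 0 passed, with medians of -0.02, 0.01 and -0.02 in the 3 comparisons in the order above. The smallest p there belonged to the DNA demethylation enzymes Tet1 (log2 fold change -0.36, SE 0.23) and Tet2 (0.44, SE 0.26) and to the zinc finger protein Wiz (-0.13, SE 0.17). The values without libraries 409 and 411 were 0.038 for Tet1, 0.14 for Tet2 and -0.14 for Wiz, so Tet1 changed sign.

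In the edgeR fit with all 12 libraries, 0 of 19 partner genes passed the threshold, and Marcks had the smallest p in each comparison. Marcks codes for an actin-binding substrate of protein kinase C through which gamma protocadherins are known to act on dendrite branching. It had 66.1, 77.4, 70.7 and 60.3 CPM in WT DMSO, 152, 118, 138 and 127 CPM in Het DMSO and 111, 106, 132 and 93.0 CPM in Het Hit 2. All 8 knock-in values lay above the highest wild-type value. The log2 fold change was 0.96 ± 0.13 (SE, adjusted p = 0.0733 in edgeR) for Het DMSO against WT DMSO, -0.27 ± 0.13 (SE, adjusted p = 0.898 in edgeR) for Het Hit 2 against Het DMSO and 0.69 ± 0.13 (SE, adjusted p = 0.387 in edgeR) for Het Hit 2 against WT DMSO. Other tools called Marcks with all 12 libraries. In DESeq2 its adjusted p was 2.1e-06 for Het DMSO and 0.0177 for Het Hit 2, each against WT DMSO. There 0.181% and 0.131% of the genes adjusted passed. Limma with library weights gave 0.0017 and 0.0061, where 0.506% and 1.14% of all genes tested passed. Without libraries 409 and 411 its edgeR adjusted p was 0.0382 for Het DMSO against WT DMSO, where 0.0895% of all genes tested passed. It was 0.0306 for Het Hit 2 against WT DMSO, where 0.448% passed. Nlgn1, a postsynaptic adhesion molecule, also passed in that last comparison (edgeR adjusted p = 0.0306), at a log2 fold change of 0.64 ± 0.10 (SE). With all libraries its log2 fold change was 0.65 ± 0.21, with an adjusted p of 1.000 in edgeR. The median over the 19 partners was 0.04, 0.02 and -0.01 in the 3 comparisons.

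Of 14 non-clustered protocadherins listed, 12 were matched in the tables, and 0 passed the threshold. Their median log2 fold change for Het DMSO against WT DMSO was 1.28 with all libraries and -0.11 without libraries 409 and 411. Pcdh8, with the smallest p of the list in that comparison, had 6.42, 2.59, 1.41 and 1.66 CPM in WT DMSO and 7.83, 41.5, 1.99 and 2.54 CPM in Het DMSO. Library 411 was thus far above the other 7 for Pcdh8, and library 410 was the highest of the Het Hit 2 group at 13.4 CPM. The brainstem and midbrain marker sum was 91.1 CPM in library 411 and 45.2 in library 410, above the 20.9 CPM of the highest WT DMSO library, and its part in these values and in the medians of the list was not tested. For Het Hit 2 against WT DMSO the median of the list was 0.65, with Pcdh8 at a log2 fold change of 1.35 (SE 0.90), and against Het DMSO the same list stood at -0.58, with Pcdh20 (-0.44, SE 0.30) at the smallest p. The sign of that median turned without libraries 409 and 411, to 0.71 with 9 of 12 positive, and Pcdh20 stood at -0.038, while the median against WT DMSO was 0.63.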

How the data were processed

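Each library had 1 deposited table of raw gene-level read counts, laid out as STAR's gene counter writes it per the file headers, and the authors normalized none of them. STAR 2.7.10a, FastQC 0.11.9 and the builds GRCm39 and mm39 are named in the submitters' processing notes, and the annotation release is not given in the sources used here. Per the labels' protocols, libraries were directional, depleted of ribosomal RNA, amplified for 13 cycles from 500 ng of RNA and sequenced from both ends for 100 bases. Counts of column 4, the strand that held most gene reads, were used.

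Of 55401 Ensembl identifiers, 55141 matched a symbol in GENCODE M21, which is on GRCm38, so no coordinates are printed. That release gives the symbol Pcdha11 to 2 identifiers. ENSMUSG00000007440 is called Pcdha10 here because RefSeq places Pcdha10 there on the same build. Pcdhgb8 is annotated as a polymorphic pseudogene. Own bases come from GENCODE M21 exons, and a different release would change them.

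Genes were kept by filterByExpr (19378) and tested in 1 fit over the 12 libraries with edgeR 4.0.16 in R 4.3.3 (TMM factors, quasi-likelihood, two-sided, Benjamini-Hochberg over all genes tested, threshold 0.05). CPM uses TMM-scaled library sizes. Alternatives were DESeq2 1.42.0, limma 3.58.1 with a quality weight per library, RLE factors, other filters, reads on either strand, only the groups compared, robust fitting, a sex covariate and leaving out libraries. The fit was tested on simulated data with known changes. Named members were the 5 C-type genes, the 3 highest and 3 lowest other genes per cluster, the 5 smallest p per comparison and every member without overlap between groups. From each other list, the gene with the smallest p per comparison was named.

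The rule for members reads symbols alone, but this gene family and the other gene lists were chosen as subjects with earlier results of these data known. The labels do not say that mice were processed separately beyond their numbers, so p-values measure the spread between these 12 libraries. Depth limits Pcdhb1 (65 reads) and Pcdha4 (164 reads) most, and PCR reads are not independent molecules.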

Additional observations from a re-analysis of the deposited data

Results flagged for a closer look

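In groups of 4 libraries, 39 quantities were checked for a highest or lowest library set apart from the others of its group (by Dixon's ratio of the gap to the group's range). Of 117 groups checked, 8 had such a library, and chance alone gives about 1 in 20, or 5.85. Library 411 (Het DMSO) gave 3 of the 8: a gamma share of 54.6% of the summed member CPM (next 71.2%), Pcdhgb7 at 19.6 CPM (next 53.5) and Pcdhb5 at 7.02 CPM (next 3.80). Library 409 (Het DMSO) gave 1, Pcdhb18 at 6.85 CPM against 14.3 in the next library. Library 431 (WT DMSO) gave 2, an alpha share of 9.51% (next 10.7%) and Pcdhga1 at 11.5 CPM (next 8.29). The remaining 2 were Pcdha4 at 0.749 CPM in library 413 and Pcdhb5 at 2.92 CPM in library 425, both WT DMSO, and Pcdha4 rests on few reads.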

How the results depend on the processing

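The count of members past the threshold was 0 in all 3 comparisons under every alternative except limma with a quality weight per library, which gave 2 for Het Hit 2 against WT DMSO (Pcdhb15 and Pcdhb16). The cause was not tested. Leaving out each library in turn gave 0 in every fit. The median log2 fold change over the members ranged from -0.00047 to 0.10 for Het DMSO against WT DMSO, from -0.10 to 0.089 for Het Hit 2 against Het DMSO, where leaving out library 411 gave -0.10, and from 0.0014 to 0.09 for Het Hit 2 against WT DMSO. The sum of the alpha genes took 13.3% of the summed member CPM with reads counted on either strand.

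In the 30 pairs of a member and a comparison for which alternatives were run, sign changes were limited to the C-type genes. For Het DMSO against WT DMSO, limma weights gave -0.11 for Pcdhac1, -0.17 for Pcdhac2 and -0.11 for Pcdhgc4, and leaving out libraries 409 and 411 gave -0.10, -0.16 and -0.12. Pcdhgc5 turned positive with DESeq2 (0.017), RLE factors (0.012), no filter (0.00704), only the 2 groups compared (0.012) and a sex covariate (0.066). For Het Hit 2 against Het DMSO, limma weights gave 0.050 for Pcdhac1, 0.043 for Pcdhac2, 0.081 for Pcdhgc4 and 0.027 for Pcdhgc5, and leaving out libraries 409 and 411 gave 0.023 for Pcdhac2 and 0.062 for Pcdhgc4. For Het Hit 2 against WT DMSO a sex covariate gave 0.036 for Pcdhgc4. Leaving out 1 library in turn moved Het DMSO against WT DMSO over -0.19 to 0.28 for Pcdhac1, -0.19 to 0.20 for Pcdhac2, -0.48 to 0.11 for Pcdhgc3, -0.031 to 0.39 for Pcdhgc4 and -0.44 to 0.24 for Pcdhgc5. It moved Het Hit 2 against Het DMSO over -0.41 to 0.070, -0.33 to 0.065, -0.49 to 0.11, -0.43 to -0.02 and -0.53 to 0.15 for the same genes. Of 660 values of these pairs, 625 kept their direction and side of the threshold. No paired analysis was possible because mouse numbers do not recur between groups. Sex was read from Xist and Y-linked transcripts, and both sexes occurred in the WT DMSO group only.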
